A study of Mus musculus with 6 samples.

Results

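Cholecystokinin (CCK) and its receptors were followed as 3 genes, the ligand gene Cck and the receptor genes Cckar and Cckbr, chosen by symbol from 47480 genes of a table of normalised read counts. VMHpvlm and VMHpvll, subregions of the ventromedial hypothalamus (VMH), were laser-captured from female mice and profiled by RNA sequencing, with 3 libraries per region. All mice of both regions were VgluT2-cre/Ai6, in which the Slc17a6 (VgluT2) gene drives Cre and Ai6 is a green fluorescent reporter of cells with a history of Cre. The labels describe laser capture and no sorting of cells, so every library holds all cell types of the captured area. The sources used here do not give age, hormonal state or the number of animals. The titles begin with F19, F20 or KH_161103 in either region, and this beginning is used here as the library name. The F19 and F20 titles end in the region, and the KH_161103 titles in C (VMHpvlm) and D (VMHpvll). The titles do not state that equal names mean the same mouse, and p-values therefore speak of libraries and not of mice. They rest on the spread among these libraries and, in limma, largely on variance shared across genes. The comparison asks how the expression profiles of VMHpvlm and VMHpvll differ.

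CCK is a peptide made by gut endocrine cells and by many neurons, cut from a precursor and amidated at its end before release. It acts on G protein-coupled receptors. The receptor encoded by Cckar prefers sulphated CCK and mediates satiety, whereas that encoded by Cckbr, widespread in the brain, binds CCK and gastrin alike. Both couple mainly to Gq proteins and phospholipase C, and the Cckar product can also couple to Gs. The VMH takes part in the control of feeding, energy use and female social and sexual behaviour, and its ventrolateral part carries oestrogen and progesterone receptors.

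The receptors divided between the regions and the ligand gene was barely read in either. Cckar was 17.8-fold higher in VMHpvll, and Cckbr was 1.97-fold higher in VMHpvlm. Of the 2 receptor genes, Cckar supplied a mean of 79.8% of the reads in VMHpvll and 9.98% in VMHpvlm. Cck had between 3 and 15 reads per library, and its mean over the 6 libraries, 9.73, lay just under the minimum of 10 set for testing. Thus 2 of the 3 genes were tested, and both differed at an adjusted p below 0.05 (limma, Benjamini-Hochberg over 14522 genes), where 20% of all tested genes did. Calls toward VMHpvll made up 9.48% of the tested genes and calls toward VMHpvlm 10.5%. These libraries hold whole tissue, so fewer cells of a type and less RNA per cell cannot be told apart.

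The libraries held between 7157831 and 11293159 reads, recovered as described under the processing of the data. The labelled tissue was checked against its markers. All 8 VMH markers were read at a mean of at least 10, and their summed level ran from 10176 to 10680 in VMHpvlm and from 8168 to 8624 in VMHpvll. Of the 8, 6 were called higher in VMHpvlm and 1 in VMHpvll, beside 10.5% and 9.48% of all tested genes. Nr5a1 (SF-1), a transcription factor that marks VMH neurons, stood at 308 ± 19.5 (SD, n = 3) in VMHpvlm and at 31.5 ± 6.73 in VMHpvll. Slc17a6, the glutamate transporter gene, stood at 4665 ± 139 and 4946 ± 17.1, the largest part of the summed level in either region. Its difference was not called (limma log2 difference -0.08, Benjamini-Hochberg adjusted p = 0.0859), although it was with libraries scaled to the same upper quartile (adjusted p = 0.0410) and without the F20 pair (0.0482).

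Cck encodes the CCK precursor. It lies on mm10 chromosome 9 from 121489824 to 121495694 on the minus strand, is protein-coding and overlaps no other annotated gene. Gast encodes gastrin, the other natural ligand of the Cckbr product, and lies on chromosome 11 from 100334407 to 100336996. The stretches below code for the last 8 residues of CCK (CCK-8) and the matching residues of gastrin, and are shown because this shared end of the peptides is the part that binds the receptors. Capitals mark the codons of the last 5 residues, which are the same in both peptides. In Cck the stretch lies in exon 3 of 3, at chr9:121490107-121490130 on the minus strand, and in Gast in exon 3 of 3, at chr11:100336846-100336869 on the plus strand (GENCODE M21 transcripts, GRCm38, the assembly of mm10).
Cck: gactacatgGGCTGGATGGATTTT
Gast: gaggcctacGGATGGATGGACTTT
Of the 24 bases, 16 are identical between the genes, and of the 15 bases in capitals 13 are.

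Both ligand genes were near the limit of detection. In VMHpvlm, Cck had normalised counts of 4.06, 6.94 and 13.6 in F19, F20 and KH_161103, from 3, 5 and 15 reads. In VMHpvll it had 5.50, 16.4 and 11.9, from 5, 11 and 13 reads. The ranges of the regions overlapped, and the order of the regions was not the same in all pairs, with F19 and F20 higher in VMHpvll and KH_161103 higher in VMHpvlm. The means were 8.21 ± 4.91 in VMHpvlm and 11.2 ± 5.47 in VMHpvll (SD, n = 3 each). A limma fit with no minimum on the mean gave Cck a log2 difference (VMHpvlm minus VMHpvll) of -0.44 ± 0.47 SE, with a Benjamini-Hochberg adjusted p of 0.733. Its 95% interval ran from -1.37 to 0.50, so a level up to 2.58-fold higher in VMHpvll or 1.41-fold higher in VMHpvlm lies within it. The edgeR test on whole reads with no minimum gave an adjusted p of 0.816 and DESeq2 one of 0.978. At this depth no difference in Cck was detectable.

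Gast had 3, 1 and 2 reads in the VMHpvlm libraries and 5, 6 and 7 in those of VMHpvll, in the order F19, F20 and KH_161103. The regions did not overlap, a separation that 28.0% of the tested genes also showed in either direction. In the limma fit with no minimum, Gast had a log2 difference of -1.27 ± 0.62 SE and did not pass (Benjamini-Hochberg adjusted p = 0.235). Levels of different genes were set side by side per kb of exon. Among 43 neuropeptide precursor genes, Cck ranked 24th by level per kb in VMHpvlm, at 6.29, and 23rd in VMHpvll, at 8.62. Gast ranked 25th in VMHpvlm, at 5.27, and 20th in VMHpvll, at 15.1. A counting error of several reads covers much of these low levels: the 95% Poisson interval of the 15 Cck reads of the KH_161103 library of VMHpvlm ran from 8.40 to 24.7 reads. Such intervals cover counting error only.

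Cckar encodes the CCK-A receptor, also called CCK1. It lies on mm10 chromosome 5 from 53697776 to 53707705 on the minus strand, and no other annotated gene overlaps it. In VMHpvll, Cckar had normalised counts of 370.45, 456 and 407 in F19, F20 and KH_161103, from 337, 306 and 446 reads. In VMHpvlm it had 28.4, 20.8 and 19.98, from 21, 15 and 22 reads. The regions did not overlap, and the lowest VMHpvll library was 13.02-fold above the highest VMHpvlm library. The means were 411 ± 42.8 and 23.1 ± 4.66 (SD, n = 3 each). The limma log2 difference was -4.11 ± 0.16 SE (Benjamini-Hochberg adjusted p = 5.23e-24), and its 95% interval covered 13.8- to 21.6-fold. By pair, the log2 difference was -3.66 in F19, -4.39 in F20 and -4.28 in KH_161103. The limma p and interval lean on a variance prior from all tested genes. With a prior without trend or robust fitting, the adjusted p of Cckar was 0.0258. Cckar ranked 8th of the 14522 tested genes by log2 difference toward VMHpvll, and Cckbr, described next, 182nd toward VMHpvlm.

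Cckbr encodes the CCK-B receptor, also called CCK2 or the gastrin receptor. It lies on mm10 chromosome 7 from 105425731 to 105470898 on the plus strand, again with no overlapping gene. In VMHpvlm, Cckbr had normalised counts of 203, 218 and 203 in F19, F20 and KH_161103, from 150, 157 and 224 reads. In VMHpvll it had 86.8, 139.99 and 89.5, from 79, 94 and 98 reads. The VMHpvlm libraries lay close together, and in VMHpvll the F20 library lay above the other two. The regions did not overlap, with means of 208 ± 8.44 and 105 ± 29.96 (SD, n = 3 each). The limma log2 difference was 1.01 ± 0.13 SE (Benjamini-Hochberg adjusted p = 6.36e-08), and its 95% interval covered 1.67- to 2.42-fold. By pair it was 1.22 in F19, 0.63 in F20 and 1.18 in KH_161103. Without F20 the log2 difference was 1.20, and with a variance prior without trend or robust fitting the adjusted p of Cckbr rose to 0.0665.

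**Figure D1:**
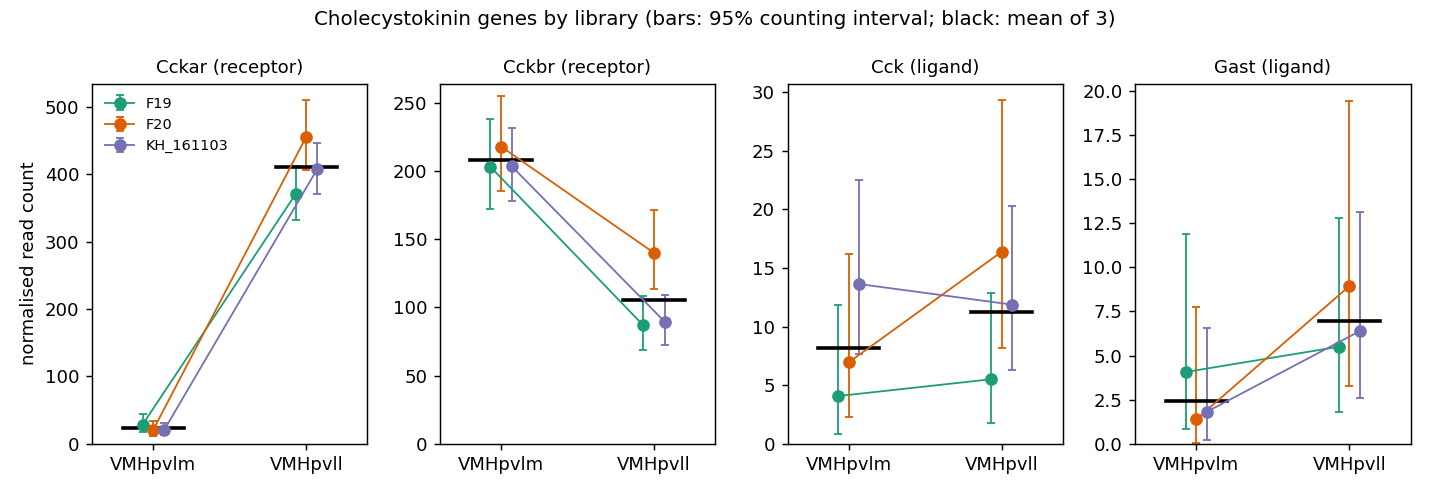
Normalised read count (vertical axis, from 0, with a scale of its own in each panel) of the receptor genes Cckar and Cckbr and the ligand genes Cck and Gast in VMHpvlm and VMHpvll. Points are libraries with 95% Poisson intervals for counting error, lines connect libraries of equal name, and black bars mark the means (n = 3). The Cckar and Cckbr points of the regions do not overlap, with Cckar between 370.45 and 456 in VMHpvll and Cckbr between 203 and 218 in VMHpvlm, whereas the Cck points do.

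The receptor with more reads was Cckbr in every VMHpvlm library and Cckar in every VMHpvll library. Of all reads of Cckar and Cckbr together, Cckar took 12.3%, 8.72% and 8.94% in the F19, F20 and KH_161103 libraries of VMHpvlm. It took 81.0%, 76.5% and 82.0% in those of VMHpvll. The exact (Clopper-Pearson) 95% intervals of these shares ran at most up to 18.2% in VMHpvlm and at least down to 72.03% in VMHpvll. Per kb of exon, Cckbr stood 11.9 ± 2.37-fold above Cckar in VMHpvlm, and Cckar stood 3.13 ± 0.53-fold above Cckbr in VMHpvll (SD, n = 3 each). The log2 ratio of Cckar to Cckbr per kb was -3.55 ± 0.31 in VMHpvlm and 1.63 ± 0.26 in VMHpvll, with pair differences between -5.53 and -4.93. An exact two-sided permutation test over the libraries, which took no account of the pairs, gave p = 0.1, the smallest that 3 libraries against 3 allow.

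In VMHpvlm the order per kb was Cckbr at 72.7 ± 2.95, then Cck at 6.29 ± 3.76 and Cckar at 6.27 ± 1.27 (SD, n = 3), and the last 2 did not differ beyond their spread. In VMHpvll it was Cckar at 112 ± 11.6, Cckbr at 36.8 ± 10.5 and Cck at 8.62 ± 4.19. The sum of the receptors per kb was 79.0 ± 2.66 in VMHpvlm and 148 ± 21.6 in VMHpvll, a ratio of 1.88. It was higher in VMHpvll in 3 of 3 pairs. The same exact two-sided permutation test, again without the pairs, gave p = 0.1, the smallest possible.

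**Figure D2:**
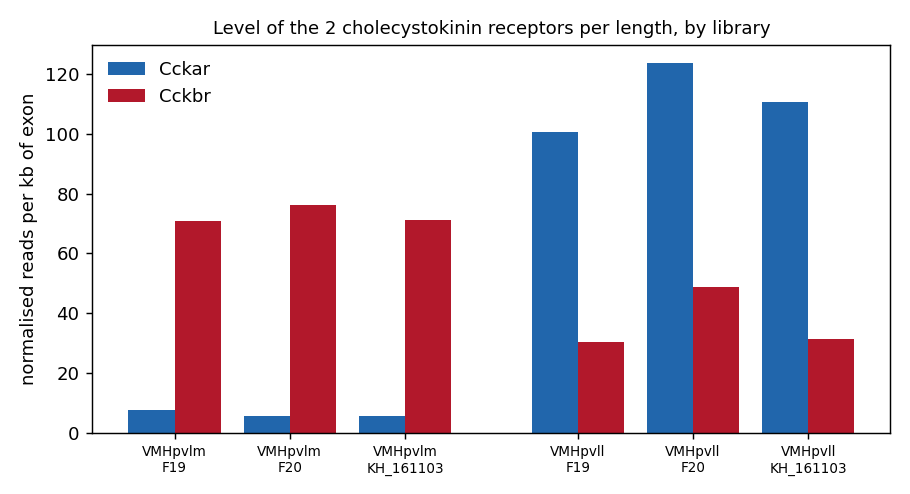
Level of Cckar (blue) and Cckbr (red) as normalised reads per kb of exon (vertical axis, from 0) in each of the 6 libraries. Cckbr is the taller bar in the 3 VMHpvlm libraries, at 71.0 to 76.1, and Cckar in the 3 VMHpvll libraries, at 101 to 124.

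Among receptors for neuropeptides, the CCK receptors lay toward opposite ends. Of 80 symbols listed, 53 were tested, of which 15 were higher in VMHpvlm and 14 in VMHpvll, beside 10.5% and 9.48% of all tested genes, with a median log2 difference of 0.01 beside 0.0025 for all tested genes. Toward VMHpvll, Cckar ranked first of the 53 by log2 difference, and toward VMHpvlm Cckbr ranked 8th. Nmur2, a receptor for neuromedins, followed Cckar at 456 ± 35.3 in VMHpvll against 59.7 ± 2.89 in VMHpvlm. Mc4r, a melanocortin receptor that restrains feeding, stood at 557 ± 94.6 against 123 ± 10.9. The kappa opioid receptor gene Oprk1 lay near Cckbr, at 310 ± 28.5 (309.9) in VMHpvlm against 141 ± 29.4 in VMHpvll. By level per kb, Cckar ranked 9th of 78 listed receptors in VMHpvll and 44th in VMHpvlm, while Cckbr ranked 17th in VMHpvll and 10th in VMHpvlm.

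**Figure D3:**
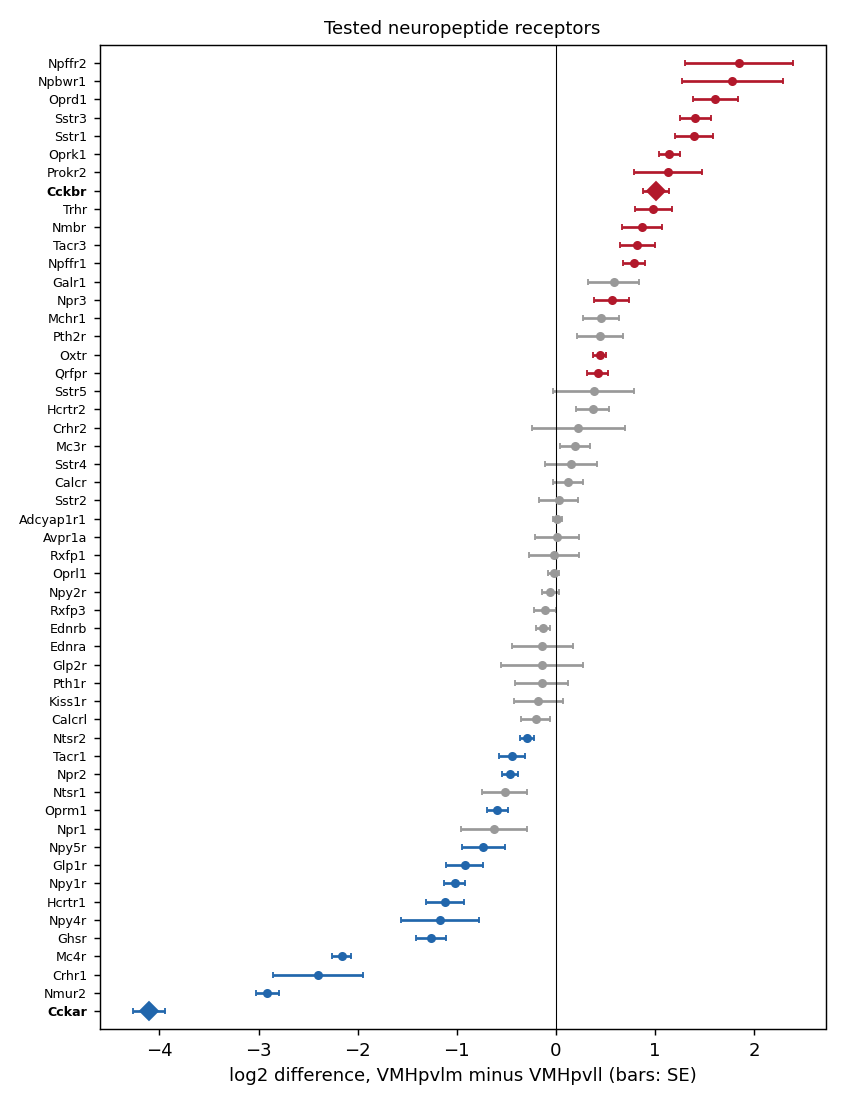
Fitted log2 difference (horizontal axis, VMHpvlm minus VMHpvll, bars are standard errors) of the 53 tested neuropeptide receptors in rank order. Red and blue points were called higher in VMHpvlm (15 genes) and VMHpvll (14 genes), grey points were not called, and diamonds mark Cckar, at the lower end, and Cckbr, 8th from the top.

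Markers of several cell types were higher in VMHpvll, as Cckar was, whereas Cckbr was higher in VMHpvlm. Their part in the receptor differences was not tested. The counts of calls below stand beside 10.5% of all tested genes called higher in VMHpvlm and 9.48% in VMHpvll. The summed level of 7 markers of the ventrolateral VMH ran from 3180 to 3849 in VMHpvlm and from 8495 to 9211 in VMHpvll, with 6 of the 7 called, all higher in VMHpvll. Of 6 tested GABAergic markers, 6 were called higher in VMHpvll, and the sum of the list of 7 ran from 839 to 1097 against 2097 to 2446. Of 10 oligodendrocyte markers, 9 were called higher in VMHpvll (sums of 11518 to 13271 against 15677 to 16799). Of 10 astrocyte markers 5 were (27304 to 29671 against 32889 to 37897), and of 10 vascular markers 7 (1824 to 2161 against 2649 to 2976). Slc1a2 made up most of the astrocyte sum (means 19437 and 24863). The sum of 10 microglia markers ran from 1279 to 1394 against 1366 to 1527, and the ranges overlapped. In these lists no marker was at 0, and Dlx5 alone had a mean under 10. Markers of neighbouring nuclei were mixed. The sum of 6 premammillary markers ran from 3033 to 3409 in VMHpvlm and from 5170 to 5950 in VMHpvll (5169.8 and 5949.5), and Nos1, the synthase of nitric oxide, made up most of it (means 3040 and 5410). Of its 5 tested genes 2 were called, Nos1 and Slc6a3, both higher in VMHpvll, and the other 3 were not. The sum of 7 dorsomedial markers ran from 569 to 647 against 307 to 475, and Pdyn made up most of it (means 476 and 318). Its 3 tested genes were called higher in VMHpvlm. The others, Grp, Brs3, Hmx2 and Hmx3, had means under 10, were not tested and had higher means in VMHpvll. Of 8 arcuate markers, Kiss1 was at 0 and Agrp and Tac2 had means under 10. The sum of the 8 ran from 405 to 677 against 306 to 397. Of its 5 tested genes, Pomc (206 against 47.8) and Npy (25.6 against 6.36) were called higher in VMHpvlm and Ghrh (12.4 against 31.8) higher in VMHpvll. The calls of Pomc and Ghrh were lost without the pair block (limma Benjamini-Hochberg adjusted p = 0.232 and 0.282). The sum of 8 markers of the lateral hypothalamus and tuberal nucleus overlapped, at 1695 to 1797 against 1730 to 2204 (1730.2). Of its 6 tested genes 1 was called, Nts, which was higher in VMHpvll (143 against 226). Hcrt (0.451 against 11.6) and Lhx9 (1.84 against 5.27) had means under 10 and were not tested.

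Cckar was also higher in VMHpvll per count of markers within the same library. The direction of these ratios follows from its 17.8-fold difference. Among the markers used for these ratios, the largest difference toward VMHpvll was 2.90-fold, for Esr1. Some markers of the lists above differed more, such as Phf21b (5.87-fold), and were not used here. The part of the mix of cells was not tested. Per 100 normalised counts of Esr1, the oestrogen receptor gene, Cckar had 4.52 ± 0.73 in VMHpvlm and 27.7 ± 3.60 in VMHpvll (SD, n = 3 each), 6.13-fold more. Against Pgr, the progesterone receptor gene, the ratio was 6.45-fold higher in VMHpvll, and against Ecel1, an enzyme gene of this area, 6.21-fold. Against Gad2, which makes GABA, it was 7.51-fold, against the GABA transporter gene Slc32a1 6.76-fold, against the myelin gene Mbp 13.1-fold and against the astrocyte gene Aqp4 13.3-fold. The libraries of the regions did not overlap in any of these ratios. Set against Slc17a6, Cckar had 0.495 ± 0.101 per 100 in VMHpvlm and 8.31 ± 0.894 in VMHpvll. Cckbr had 4.46 ± 0.0859 per 100 of Slc17a6 in VMHpvlm and 2.13 ± 0.614 in VMHpvll, 2.09-fold more in VMHpvlm. Against Esr1 and Gad2, Cckbr was 5.83- and 4.76-fold higher in VMHpvlm. Per 100 of Nr5a1, however, Cckbr had 67.9 ± 7.26 in VMHpvlm and 351 ± 153 in VMHpvll, since Nr5a1 differed more between the regions than Cckbr did. The ratio of Cckar to Nr5a1 was 180-fold higher in VMHpvll.

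Genes that make and release CCK-like peptides went both ways. The list of 43 precursors had 23 tested genes, with 7 called toward VMHpvlm and 8 toward VMHpvll, beside 10.5% and 9.48% of all tested genes. Among 21 tested processing and release genes, 8 were called toward VMHpvlm and 6 toward VMHpvll, beside 10.5% and 9.48% of all tested genes, with a median log2 difference of 0.08. Pam, which amidates peptides such as CCK at their end, stood at 5690.0 ± 309 in VMHpvlm against 3567 ± 263 in VMHpvll. The granule gene Chga (2436 ± 150.1 against 1554 ± 214) and Cadps2, a priming factor for dense-core vesicles (2034 ± 88.1 against 1363 ± 122), were also higher in VMHpvlm. The granule gene Scg2 was higher in VMHpvll, at 19497 ± 669.8 against 13917 ± 457. Pcsk1, a convertase that cuts peptide precursors, was singled out after its values were seen. It stood at 357 ± 56.2 in VMHpvlm and 165 ± 26.6 in VMHpvll, the largest log2 difference of the list at 1.11 (limma Benjamini-Hochberg adjusted p = 7.67e-12). Of 5 peptidases that cleave CCK or similar peptides, 1 was called, again the share of 20% found over all tested genes. This was Ace, at 443 ± 19.3 in VMHpvlm and 536 ± 59.9 in VMHpvll. That call was lost without the pair block (limma Benjamini-Hochberg adjusted p = 0.0543) and without the F20 pair (0.144). Without the pair block 9 of the 21 processing genes were called, and 8 by DESeq2.

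The signalling genes downstream of the receptors were also split. Of 31 tested genes of Gq and phospholipase C signalling, 9 were higher in VMHpvlm and 7 in VMHpvll, beside 10.5% and 9.48% of all tested genes, with a median log2 difference of -0.07. Gnaq and Gna11, the main Gq proteins, were not called (limma log2 differences 0.08 and -0.09, Benjamini-Hochberg adjusted p = 0.208 and 0.350). Gna14, another Gq-class gene, which was singled out after its values were seen, was higher in VMHpvll, at 32.5 ± 7.21 against 8.02 ± 4.91. Plcb1, a phospholipase C, stood at 1615 ± 72.0 in VMHpvlm against 942 ± 58.7 (942.5) in VMHpvll, and Dgkg, a diacylglycerol kinase, at 1101 ± 75.4 against 586 ± 89.5. The cation channel gene Trpc4 (549 ± 19.8 against 228 ± 10.5) and the protein kinase C gene Prkce (6716 ± 628 against 4793 ± 276) were higher in VMHpvll.

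Of 15 tested kinases, arrestins and RGS proteins that end receptor signals, 3 were called, the same share as the 20% of all tested genes. All 3 were higher in VMHpvll. Rgs4 (4245 ± 293 in VMHpvll against 2170 ± 192, or 2170.4, in VMHpvlm) and Rgs2 (1182 ± 62.0 against 741 ± 28.2) shorten Gq signals. Rgs5, the other called gene and a pericyte marker, stood at 769.7 ± 50.4 against 638 ± 98.4. Its call was lost without the pair block (limma Benjamini-Hochberg adjusted p = 0.0820), with DESeq2 (0.0800) and without the KH_161103 pair (0.188). Of 18 genes of Gs and cAMP signalling, 4 were higher in VMHpvlm and 3 in VMHpvll, beside the same 10.5% and 9.48%, with a median log2 difference of 0.06. Prkacb, a catalytic subunit of protein kinase A, led those higher in VMHpvlm (7136 ± 107 against 5572 ± 77.2). Gnal, a Gs-class gene, led those higher in VMHpvll (1666 ± 88.4 against 1238 ± 82.4). Exons of Nos1, Slc32a1, Pam, Ace, Plcb1, Dgkg, Prkce and Gnal overlap another annotated gene, so their reads are less certain.

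**Figure D4:**
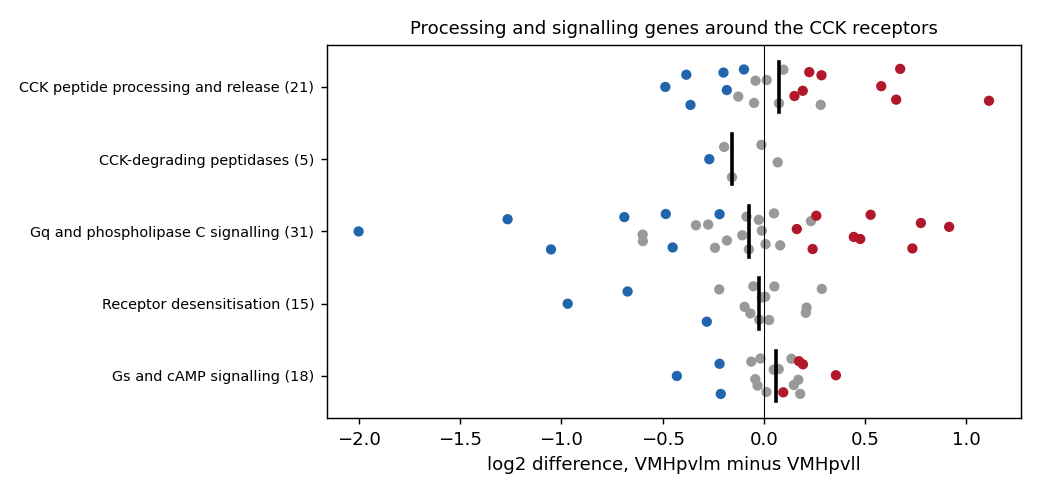
Fitted log2 difference (horizontal axis, VMHpvlm minus VMHpvll) of the tested genes of 5 lists around the CCK receptors, with the count of tested genes beside each list name and its median drawn as a black line. Red and blue points were called higher in VMHpvlm and VMHpvll, grey points were not called, and vertical position within a list carries no value. The medians lie between -0.16 and 0.08, with called genes on both sides in 3 of the lists.

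Genes with the profile most like that of each receptor were found by the root-mean-square distance between log2 profiles over the 6 libraries, each centred on its own mean, among 11126 genes with a mean of at least 50. Nearest to Cckar was Iigp1, an interferon-inducible GTPase gene (distance 0.32, Pearson r = 0.99). It was followed by Samd9l (0.47), Gm20559 (0.52), Nmur2 (0.64) and Stat5a (0.80). Iigp1 stood at 454 ± 101 in VMHpvll and 29.96 ± 1.89 in VMHpvlm. Gm20559 and Stat5a share exonic sequence with other annotated genes, Gm43198 and Stat3. Nearest to Cckbr was Stxbp6, which encodes a binding partner of the exocytosis machinery, at 302 ± 19.7 in VMHpvlm and 152 ± 44.8 in VMHpvll (distance 0.05). Rbfox1, a neuronal splicing regulator (0.08), Myh7 (0.10), Islr2 (0.11) and Cited2 (0.12) followed. Myh7 and Islr2 also overlap other genes. These likenesses describe 6 libraries of 2 regions that share depth and pairing, and most of each profile is the step between the regions.

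The count of called genes among the chromosomal neighbours was near the 20% of all tested genes, so nothing is read from it. Of the 3 nearest tested genes on each side of Cckar, at 40.4 to 484 kb, 1 was called: Stim2, with a limma log2 difference of -0.22 beside -4.11 for Cckar. Of the 6 around Cckbr, at 17.0 (16.99) to 475 kb, 1 was called: Fam160a2, with 0.21 beside 1.01. Both calls were lost with DESeq2 (adjusted p = 0.0657 and 0.146), that of Stim2 also without the F19 pair (0.0645, limma) and that of Fam160a2 without KH_161103 (0.0954). Of the 6 around Cck, 2 were called, Ulk4 (log2 difference 0.56) and Ctnnb1 (-0.12), which overlap each other. Both calls were lost without the pair block, with DESeq2, and without the F19 or the KH_161103 pair (adjusted p from 0.0552 to 0.412). Cnga4, 17.0 kb from Cckbr, had a log2 difference of 0.998 ± 0.471 SE, as large as that of Cckbr, and missed the threshold (adjusted p = 0.142, limma). Unlike Cckbr, it was read near the minimum for testing, at a mean of 11.4. Its libraries overlapped between the regions, and the KH_161103 pair went the other way (-0.14).

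The promoters of Cck and Cckbr are shown because their letters can be set against the steroid receptor and Nr5a1 levels that differ between the regions. Each runs from 250 bases before to 50 after the annotated start (RefSeq, GRCm38.p6), and the table held 2 of the 3 genes. The Cck promoter lies at chr9:121495645-121495944 on the minus strand and that of Cckbr at chr7:105425481-105425780 on the plus strand. Capitals mark CACGTG (E-box) in both, and TGCGTCA, a composite element described for the CCK gene, in Cck.
Cck: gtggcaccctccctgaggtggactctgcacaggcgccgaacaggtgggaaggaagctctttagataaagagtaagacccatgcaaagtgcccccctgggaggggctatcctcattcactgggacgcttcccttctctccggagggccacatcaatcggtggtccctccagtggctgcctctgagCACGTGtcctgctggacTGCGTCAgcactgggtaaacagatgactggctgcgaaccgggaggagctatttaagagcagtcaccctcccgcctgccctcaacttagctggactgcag
Cckbr: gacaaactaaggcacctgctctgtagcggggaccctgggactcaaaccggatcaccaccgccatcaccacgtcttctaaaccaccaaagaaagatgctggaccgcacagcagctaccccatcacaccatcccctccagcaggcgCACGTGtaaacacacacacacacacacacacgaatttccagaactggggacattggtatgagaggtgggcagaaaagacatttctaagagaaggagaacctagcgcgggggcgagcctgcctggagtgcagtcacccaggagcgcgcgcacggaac
On both strands, neither promoter held GGTCA and TGACC with 3 bases between (an oestrogen response element, in 0.0700% of 32851 promoters), the shorter GGTCA (40.5%), AAGGTCA (an SF-1 site that contains GGTCA, 4.72%) or TGACGTCA (a cAMP response element, 1.79%). CACGTG was in 7.15% of promoters and TGCGTCA in 2.12%. A match describes letters in this window and not a site in use.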

How the data were processed

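RNA was extracted from laser-captured tissue with the PicoPure kit and made into libraries with a stranded total RNA kit, per the labels. The submitters' processing notes name HISAT2, featureCounts and mm10. The sources used here give neither the annotation nor the scaling tool, nor whether counting used strand. The deposited table holds a normalised signal, gene counts that the authors divided by 1 factor per library: in every library 100% of values above 0 were whole multiples of 1 read (tolerance 0.05 reads). Reads were recovered on this basis. The test was limma 3.58.1 (R 4.3.3, variance prior with trend and robust fitting) on log2(value + 1), over the 14522 genes whose mean reached 10, two-sided, with Benjamini-Hochberg adjustment over all of them. This scale understates changes of low genes. The model held region and, as a fixed block, the shared title name, which left 2 residual degrees of freedom and a median of 39.9 from the variance prior.

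Pairing by title name was set before the fit. Deviations from region means correlated at 0.255, 0.244 and 0.363 between same-named libraries and at 0.00670 or below between others. Deviations within a region cancel out, so positive values between same-named libraries force lower ones between others. The lower values are thus no separate support for the pairing. Within a region every 2 libraries differed beyond counting noise (chi-square per degree of freedom of at least 5.49). The members, the gene lists and the tests were chosen with earlier results of these data known. Genes were named from each list by smallest p (up to 4), by likeness and by position, and others as stated. Exon lengths and positions came from GENCODE M21. On simulated data for these 14522 genes, 68, 66 and 66 genes were changed by 0.5, 1 and 2 (log2), with the same dispersion for every gene. The limma step called 17.6%, 89.4% and 100% of them, with 4 false calls among 141. The real data gave 2905 calls and need not share that dispersion, so these shares do not give the power of the test here. Alternatives were no block, a random pair effect, other pseudocounts, filters, scalings and priors, edgeR 4.0.16, DESeq2 1.42.0, and leaving out pairs or libraries. edgeR on the recovered reads called 3031 genes and limma 2905.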

Additional observations from a re-analysis of the deposited data

How the results depend on the processing

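The log2 difference of Cckar kept its direction and call in 29 of 29 other settings, between -4.33 and -3.90. That of Cckbr kept its direction in 29, between 0.89 and 1.23, and its call in 28: with a variance prior without trend or robust it was 1.01 with an adjusted p of 0.0665. Leaving out a pair or library gave -4.33 to -3.97 for Cckar, 0.89 to 1.23 for Cckbr and -0.84 to -0.07 for Cck, which was tested in 3 settings without a minimum and called in 0. Without the pair block the adjusted p was 4.99e-13 for Cckar and 0.000139 for Cckbr. The number of genes called, 2905, was 1800 without the block, 422 with that prior, 1230 by DESeq2 and 1134 by DESeq2 with no minimum, and 1760.0 to 2892 with a pair or library left out. It was 1773 without the KH_161103 pair. Without the block and with 1 library left out it was 1654 (F20 of VMHpvll), 1422, 1388, 1373 or 1372. With the block, leaving out 1 library drops its pair from the estimate and so repeats the estimate without that pair. Libraries were therefore also left out without the block, an alternative chosen after seeing the data, like the count tests with no minimum. Fits with no block or a random pair effect also keep the main estimate, so the 29 settings are not all separate checks. Scaling to the same total gave 58.9% of calls toward VMHpvlm and to the same upper quartile 49.0%, against 52.6% as deposited. Of the 51 other genes followed, 21 lost their call with the prior without trend or robust and 12 changed it under some other setting (Ace, Ctnnb1, Fam160a2, Ghrh, Gnas, Npy, Pomc, Rgs5, Slc17a6, Slc6a3, Stim2 and Ulk4), with 0 reversals. The depth, 7157831 to 11293159 reads, limits Cck and Gast to 15 reads or fewer per library.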
